A study of Mus musculus with 13 samples.

Results

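A set of 10 genes that the tumour suppressor p53 is known to switch on are described here in mouse myoblasts depleted of the RNA-binding protein YBX3. The genes are Cdkn1a, Mdm2, Ccng1, Trp53inp1, Bax, Bbc3, Phlda3, Eda2r, Zmat3 and Gdf15, out of 55642 genes in the count table. All 10 were among the 16848 genes that passed the filter on low counts. Cdkn1a was chosen by its own higher level after YBX3 knockdown (KD), so its values are a description without a test, and the question was whether the other 9 genes moved with it. Across both days, each of the other 9 had a positive log2 fold change. Eda2r was the only 1 of them that passed the test over the 13 libraries, where 1.29% of all genes tested were called higher. Mdm2, Trp53inp1 and Bbc3 passed as well once libraries of the same replicate letter were compared with each other. By that fit 5.4% of all genes tested were called higher.

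As background, p53 is a transcription factor that is held at a low level in growing cells by the ubiquitin ligase MDM2 and is stabilised after DNA damage and other stresses. It then binds paired half-sites in DNA and activates genes that stop the cell cycle, repair DNA, start apoptosis or feed back on p53 itself. Cdkn1a encodes p21, an inhibitor of cyclin-dependent kinases (CDKs), and in muscle precursors p21 is also known as a gene of the exit from the cell cycle at differentiation, where it can be induced without p53.

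The cells were C2C12, a mouse myoblast line that can be kept proliferating or be made to differentiate. They were transfected with a nontargeting siRNA (control KD) or with siRNA against YBX3 (YBX3 KD), and at 24 h the medium was either left with fetal bovine serum (0 day, proliferating myoblasts) or changed to one with 10% horse serum (1 day, differentiating myoblasts). All cells were collected 48 h after transfection, and polyadenylated RNA was sequenced. Control KD had 4 libraries at 0 day (replicates A, B, C and D) and 2 at 1 day (C and D). YBX3 KD had 4 at 0 day (A, B, C and D) and 3 at 1 day (B, C and D). The labels call them biological replicates of 1 cell line, so the p-values concern the spread between such replicates. The main test had no term for the replicate letter, although letters recur across the groups and paired the libraries. Its p-values thus treat the 13 libraries as independent, while the fits with the letter as a block allow for the letter.

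Total estimated counts ran from 33451547 to 71811371 per library, with the lowest in replicate D of control KD at 0 day. Ybx3 fell to 14.5% of its control level, from 311 ± 29.3 CPM (counts scaled to library size; SD, n = 6) to 45.0 ± 13.2 (n = 7). Its log2 fold change was -2.81 (adjusted p = 5.26e-06 by edgeR's quasi-likelihood test, with the adjustment of Benjamini-Hochberg throughout). The 7 myoblast markers summed to between 750 and 1022 CPM, although Myod1 stood at only 1.07 CPM in control KD. The 7 markers of muscle differentiation summed to between 29.4 and 112 CPM with no gap between the days, and 9 markers of other cell types to between 2.52 and 3.84 CPM, with Epcam and Sox10 at 0.

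Replicate D stood apart from replicates A to C in several of the genes described here. In control KD at 0 day, replicate D had 2.23 times the mean of A to C for Cdkn1a, 2.82 times for Trp53inp1 and 1.59 times for Bbc3. Both groups and both days have a replicate D, so each result that rests on it is given with and without those 4 libraries. That choice was made after the values had been seen.

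The p53 half-site consensus was searched for near the start of each gene. The window was 10000 bases, 5000 on either side of the canonical transcript's first base (GRCm39). A match was 2 adjacent copies of the consensus, with the core letters of each copy exact. Up to 1 mismatch outside the cores was allowed over the 20 bases. Of the 10 genes, 4 held such a match, against 1.42% of the 13111 genes searched, which is 186 genes. Since the 10 genes were picked as known p53 targets, this contrast is a description without a test. The matches are shown because they place the members' best-known kind of regulatory element in the genome. Each is written 5′ to 3′ on the strand of its gene, with the core letters in capitals.
Cdkn1a, chr17:29309902-29309921: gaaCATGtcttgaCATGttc
Ccng1, chr11:40645763-40645782: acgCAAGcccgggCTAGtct
Zmat3, chr3:32418480-32418499: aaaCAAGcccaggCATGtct
Zmat3, chr3:32424300-32424319: gagCAAGtctgggCTTGtta
Gdf15, chr8:71084616-71084635: tgaCTTGcctgaaCTTGcct

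The first Zmat3 sequence had 0 mismatches, as had 0.244% of all genes searched, and the others had 1. The Cdkn1a match lay upstream, at -2826 bases from the canonical start, just before the first base of the annotated gene (chr17:29309936). The Ccng1 match was in intron 1 at 365 bases after the start, the first Zmat3 match in intron 1 at 1418 bases, and the second Zmat3 match upstream at -4402 bases. The Gdf15 match was in the untranslated part of exon 1, at 485 bases. With 2 mismatches allowed, 6.72% of all genes and the same 4 members had a match. A match is a string of letters and not evidence of binding, and a gene without one may still be bound. Eda2r, the member that passed the test, had none in this window.

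Cdkn1a (ENSMUSG00000023067, chr17:29309936-29319701, + strand) encodes p21. In control KD at 0 day it stood at 116, 129, 123 and 273.5 CPM in replicates A to D, and at 1 day at 119 and 139 CPM in C and D. In YBX3 KD at 0 day it stood at 288, 301, 290 and 277 CPM in A to D, and at 1 day at 311, 261 and 364 CPM in B to D. Thus 5 of the 6 control libraries were between 116 and 139 CPM, while replicate D of control KD at 0 day lay inside the range of YBX3 KD. The group means were 149.9 ± 61.1 CPM (SD, n = 6) and 299 ± 33.04 CPM (n = 7), so YBX3 KD was at 199% of control. Without replicate D they were 122 ± 5.46 (n = 4) and 290.2 ± 18.7 (n = 5), and YBX3 KD was at 238% of control. The fitted log2 fold change was 1.01 (SE 0.20) over both days, 0.85 at 0 day and 1.28 at 1 day.

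Within each of the 6 pairs of libraries that share a replicate letter and a day, Cdkn1a was higher in YBX3 KD. The 4 pairs of replicates A to C gave folds between 2.20 and 2.48. The pair of replicate D gave 1.01 at 0 day and 2.63 at 1 day. Ordered by mean, the levels were 129 ± 14.3 CPM in control KD at 1 day (n = 2), 160.5 ± 75.5 in control KD at 0 day (n = 4), 289 ± 9.95 in YBX3 KD at 0 day (n = 4) and 312 ± 51.7 in YBX3 KD at 1 day (n = 3). Neither the first 2 groups nor the last 2 differed beyond their spread. In bulk RNA, a higher level in every cell and a larger share of cells with a high level cannot be told apart.

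**Figure D1:**
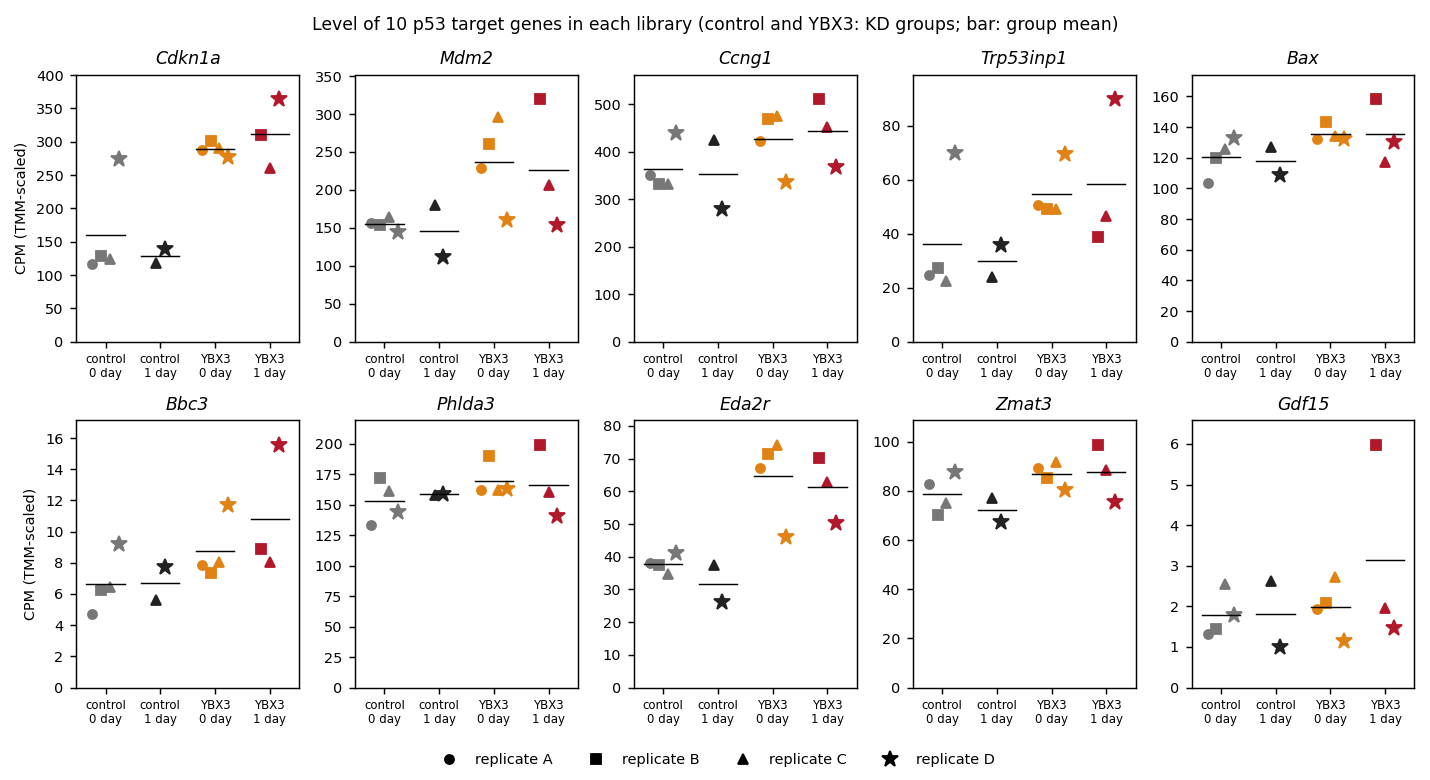
CPM (linear axis from 0, scaled by TMM factors) of each of the 10 genes in all 13 libraries, by group, with the symbol giving the replicate letter and the bar the group mean. Eda2r was the 1 gene with no overlap between its 7 YBX3 KD and its 6 control KD libraries. For Cdkn1a and Trp53inp1, replicate D of control KD at 0 day (grey star) was the only control library within the YBX3 KD range. For the other genes except Mdm2 and Eda2r it also lay within that range, as did further control libraries.

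Eda2r (ENSMUSG00000034457, chrX:96320270-96420847, - strand) encodes a receptor of the tumour necrosis factor receptor family that binds the A2 form of ectodysplasin. It stood at 38.1, 37.4, 34.7 and 41.0 CPM in control KD at 0 day and at 37.4 and 26.2 CPM at 1 day. In YBX3 KD it stood at 67.2, 71.5, 74.3 and 46.1 CPM at 0 day and at 70.3, 62.9 and 50.4 CPM at 1 day. Each of the 7 knockdown libraries exceeded each of the 6 control libraries, and the lowest 2 of them were both replicate D. Such a lack of overlap was seen in 1 of the 9 genes other than Cdkn1a, against 0.95% of the 16848 genes tested. Eda2r rose from 35.8 ± 5.11 to 63.3 ± 10.9 CPM (n = 6 and 7). The log2 fold change was 0.84 (SE 0.13, adjusted p = 0.00597, edgeR's quasi-likelihood test). YBX3 KD exceeded control KD in 6 of 6 pairs, by 1.12 to 2.14 times, and the call held in 23 of 23 alternative settings. Its ligand gene Eda and the related receptor gene Edar were too low to be tested.

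Of the 9 genes other than Cdkn1a, Eda2r was thus the only one to pass an adjusted p of 0.05 over both days. By that rule 1.29% of all genes tested were called higher. In this edgeR fit no member passed the study's stricter thresholds (an absolute fold change above 1.3 with an adjusted p under 0.001). By that rule 0.113% of all genes were called in either direction. The study applied these thresholds to another test, DESeq2 with a different adjustment, so the counts are not like for like. Eda2r met both thresholds in some of the alternative settings. At an unadjusted p under 0.05, 6 of the 9 were higher and none lower, and 8.71% of all genes were higher by that rule. Their median log2 fold change was 0.39, against 0.0008 over all genes tested.

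Mdm2 (ENSMUSG00000020184, chr10:117524780-117546730, - strand) encodes the ligase that marks p53 for degradation and is itself a p53 target, which closes a feedback loop. It stood at 156.5, 154, 165 and 145 CPM in control KD at 0 day and at 180.3 and 112 CPM at 1 day. In YBX3 KD it stood at 229, 261, 296 and 160.1 CPM at 0 day and at 320, 206 and 154 CPM at 1 day. The 5 libraries of replicates A to C were above every control library, and the 2 of replicate D were not. Its log2 fold change was 0.62 (SE 0.18, adjusted p = 0.101, edgeR's quasi-likelihood test). Blocking by replicate letter gave 0.54 (SE 0.12, adjusted p = 0.0237), and 6 of 6 pairs went the same way.

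Ccng1 (ENSMUSG00000020326, chr11:40639377-40646148, - strand) encodes cyclin G1, which works with a phosphatase in the same feedback on p53. It was the member with the highest CPM, between 279.8 and 439 in the control KD libraries (median 342) and between 337 and 512 in YBX3 KD (median 453). Replicate D had both the highest and the lowest control value. The groups overlapped without it too, since replicate C of control KD at 1 day (425.5 CPM) was above replicate A of YBX3 KD at 0 day (422 CPM). The log2 fold change was 0.27 (SE 0.13, adjusted p = 0.331, edgeR's quasi-likelihood test). YBX3 KD was the higher library in 5 of 6 pairs.

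Trp53inp1 (ENSMUSG00000028211, chr4:11156412-11175230, + strand) encodes a stress protein that acts with p53 in arrest, apoptosis and autophagy. It stood at 24.7, 27.3, 22.4 and 69.9 CPM in control KD at 0 day and at 24.1 and 35.7 CPM at 1 day. In YBX3 KD it stood at 50.7, 49.3, 49.2 and 69.6 CPM at 0 day and at 39.0, 46.5 and 90.1 CPM at 1 day. Here replicate D was the highest library in each of the 4 groups, and its pair at 0 day did not differ (1.00 times), whereas the 4 pairs of A to C gave 1.81 to 2.20 times. The log2 fold change over 13 libraries was 0.74 (SE 0.29, adjusted p = 0.231, edgeR's quasi-likelihood test). Blocked by letter it was 0.86 (SE 0.15, adjusted p = 0.00933).

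Bbc3 (ENSMUSG00000002083, chr7:16042318-16052130, + strand) encodes PUMA, a BH3-only protein that triggers apoptosis at the mitochondrion. It was a low gene, at 4.70, 6.29, 6.45 and 9.23 CPM in control KD at 0 day and 5.59 and 7.76 CPM at 1 day. YBX3 KD had 7.84, 7.37, 8.08 and 11.7 CPM at 0 day and 8.86, 8.08 and 15.6 CPM at 1 day. As for Trp53inp1, replicate D was the highest library in each group. The log2 fold change was 0.51 (SE 0.20, adjusted p = 0.238, edgeR's quasi-likelihood test), and 0.54 (SE 0.11, adjusted p = 0.0153) with the letter as a block. YBX3 KD was higher in 6 of 6 pairs, by 1.17 to 2.01 times.

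Bax (ENSMUSG00000003873, chr7:45111015-45116325, - strand) encodes the pore-forming member of the BCL2 family that BH3-only proteins release. Its range was 103.5 to 133 CPM without and 117 to 158 CPM with YBX3 KD, and the log2 fold change was 0.18 (SE 0.08, adjusted p = 0.302, edgeR's quasi-likelihood test). Phlda3 (ENSMUSG00000041801, chr1:135693809-135697686, + strand), which encodes an inhibitor of AKT signalling, ranged from 133 to 172 CPM in the controls and from 140.4 to 199 CPM after YBX3 KD. Its log2 fold change was 0.12 (SE 0.09, adjusted p = 0.570). Both genes overlapped widely between the groups.

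Zmat3 (ENSMUSG00000027663, chr3:32388941-32420163, - strand) encodes a zinc-finger RNA-binding protein. It ranged from 67.5 to 87.5 CPM in the controls and from 75.5 to 98.9 CPM after YBX3 KD, and its log2 fold change was 0.19 (SE 0.08, adjusted p = 0.264, edgeR's quasi-likelihood test). Gdf15 (ENSMUSG00000038508, chr8:71082038-71091537, - strand) encodes a secreted stress hormone. It had the lowest counts of the members, 38 to 339 per library, and ranged from 0.993 to 2.62 CPM in the controls and from 1.15 to 5.98 CPM after YBX3 KD. Its log2 fold change was 0.39 (SE 0.37, adjusted p = 0.664), and 0.07 without replicate B of YBX3 KD at 1 day, the library at 5.98 CPM. The gene of its receptor, Gfral, was too low to be tested.

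With the replicate letter as a block, 4 of the 9 genes were called higher (Mdm2, Trp53inp1, Bbc3 and Eda2r), against 5.4% of all genes tested. Without the 4 libraries of replicate D, 6 of the 9 rose (those 4, Ccng1 and Zmat3), against 5.8% of the 17271 genes then tested. Their adjusted p-values ran from 5.45e-05 for Eda2r to 0.0337 for Zmat3 (edgeR's quasi-likelihood test). In those 9 libraries every YBX3 KD library was above every control library for 5 of the 9 genes (Mdm2, Trp53inp1, Bbc3, Eda2r and Zmat3), a pattern held by 6.16% of all genes. Of the 9 genes, 3 (Mdm2, Bbc3 and Eda2r) were higher in YBX3 KD in all 6 pairs, as were 9.35% of all genes. Bax, Phlda3 and Gdf15 passed in none of these 3 fits.

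**Figure D2:**
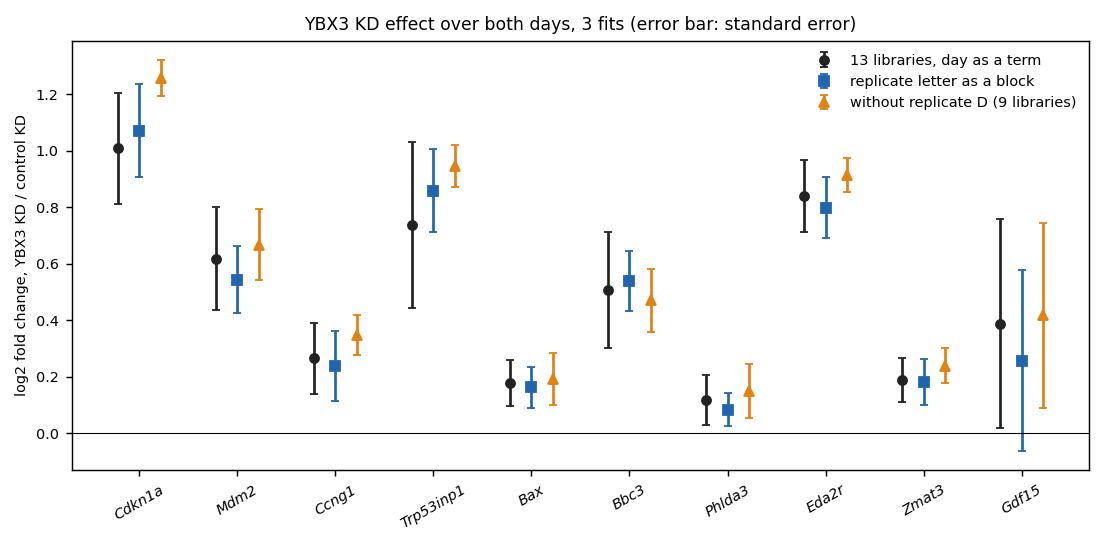
Log2 fold change of YBX3 KD over control KD across both days for the 10 genes, with bars of 1 standard error, over the 13 libraries (circles), with the replicate letter as a block (squares) and without replicate D (triangles). All values were above 0, and Cdkn1a ran from 1.01 to 1.26 and Phlda3 from 0.08 to 0.15.

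**Figure D3:**
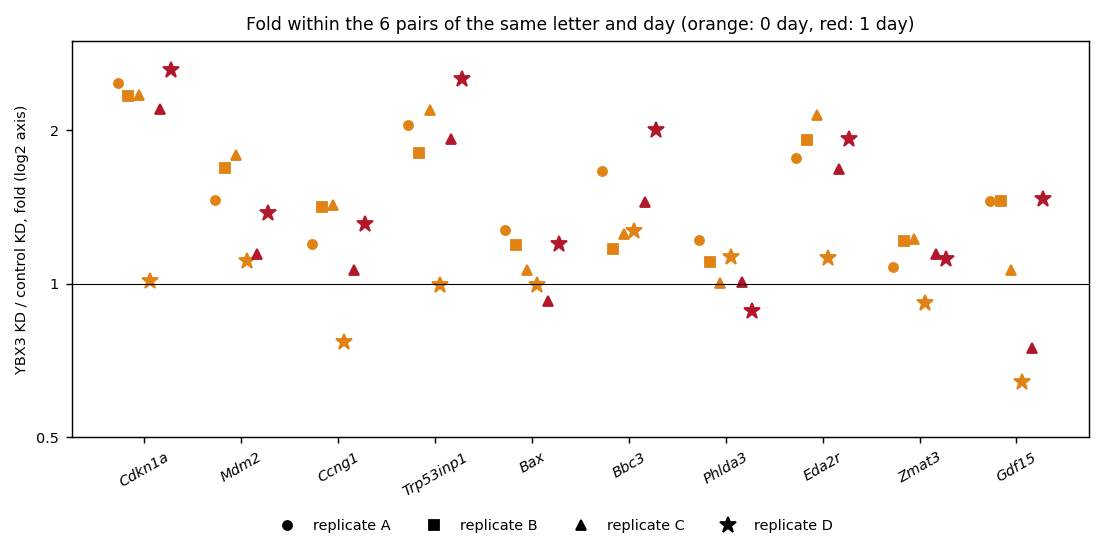
Fold of YBX3 KD over control KD (log2 axis) within the 6 pairs of libraries that share a replicate letter and a day, orange for 0 day and red for 1 day. The pair of replicate D at 0 day (orange star) was near 1 for Cdkn1a (1.01) and Trp53inp1 (1.00), while its pair at 1 day (red star) was at 2.63 and 2.52.

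The members did not all vary together among libraries of the same group. After the group means were subtracted from log2 CPM (13 libraries, which share 4 replicate letters), Cdkn1a correlated with Trp53inp1 at r = 0.86 and with Bbc3 at r = 0.68, but with Mdm2 at r = -0.20 and with Eda2r at r = 0.05. Mdm2 correlated with Eda2r at 0.88, with Gdf15 at 0.92 and with Ccng1 at 0.80, and with Trp53inp1 at -0.65. Several of these r values rested on replicate D. Over the 9 libraries without it, Cdkn1a correlated with Trp53inp1 at r = -0.43, with Bbc3 at 0.56, with Mdm2 at 0.73 and with Eda2r at 0.47. Mdm2 then correlated with Eda2r at 0.73, with Gdf15 at 0.89, with Ccng1 at 0.84 and with Trp53inp1 at -0.72. All of these are descriptions of few libraries. Without replicate D, 1 group held a single library, which lies at its own group mean and adds nothing to r. In YBX3 KD, replicate D had 0.61 times (0 day) and 0.59 times (1 day) the Mdm2 level of the other letters, and 0.65 and 0.76 times the Eda2r level. For Trp53inp1 it had 1.40 and 2.11 times, and for Bbc3 1.51 and 1.84 times.

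Scaled by the length of the canonical transcript, the 10 genes spanned a wide range of levels in control KD. Bax had 122.5 CPM per kilobase, Ccng1 103, Cdkn1a 78.0, Phlda3 67.4 and Mdm2 49.1. Zmat3 (9.74), Eda2r (7.51), Trp53inp1 (5.42), Bbc3 (2.48) and Gdf15 (0.932) were far lower on that scale. In YBX3 KD the mean of Cdkn1a, at 155 CPM per kilobase, was above those of Bax (139) and Ccng1 (123.5).

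Genes whose profile was most like that of Cdkn1a were ranked by Pearson's r of log2 CPM over the 13 libraries. The highest 5 of 16847 genes were Ptprf (r = 0.97), Gas6 (0.96), Vmn2r79 (0.95), Ctbs (0.94) and Serpinb6b (0.94). The best-placed member was Trp53inp1 (0.88, rank 83), followed by Bbc3 (0.78, rank 455) and Eda2r (0.78, rank 471). Over the 9 libraries without replicate D, Eda2r was at rank 2 with r = 0.99 and Trp53inp1 at rank 38 with 0.96, and Mdm2 had r = 0.90. No gene was among the highest 5 both with and without replicate D. Since every gene that differs between YBX3 KD and control KD correlates with Cdkn1a in this design, these r values carry no test.

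At 0 day alone, no member passed (edgeR's quasi-likelihood test, adjusted p = 0.0803 for Eda2r and 0.352 for Mdm2), where 0.208% of all genes were called higher. Both were under an unadjusted p of 0.05. DESeq2 called 1 of the 9, and it called 1.47% of all genes higher. With the replicate letter as a block, Eda2r passed (log2 fold change 0.75, adjusted p = 0.0271, edgeR's quasi-likelihood test), as 1 of the 9. That fit called 1.37% of all genes higher. At 1 day alone, with 2 control libraries, no member passed either (Eda2r log2 fold change 0.94, adjusted p = 0.363), and 0.00594% of all genes, a single gene, were called higher. Eda2r was the only member of the 9 at an unadjusted p under 0.05. DESeq2 called 1 of the 9 at 1 day, and it called 0.398% of all genes higher. The shares of all genes at an unadjusted p under 0.05 within a single day are not given. The unadjusted results are thus not read as a trait of the members.

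The YBX3 KD effect was not shown to differ between the days for any member. In the test of that difference and in the tests from 0 day to 1 day within control KD and within YBX3 KD, the share of all genes called was 0%, and the members' adjusted p-values were at least 0.988 (edgeR's quasi-likelihood test). None of the 9 was under an unadjusted p of 0.05 in these 3 comparisons, and DESeq2 called none. The medium change thus gave no detectable shift of the members at this number of libraries. Eda2r, for example, was at 37.8 ± 2.60 and 31.8 ± 7.88 CPM at 0 and 1 day in control KD, and at 64.8 ± 12.8 and 61.2 ± 10.04 CPM after YBX3 KD.

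A wider list of 44 other p53 target genes was in the table and all 44 were tested. Over both days 5 rose and none fell, against 1.29% of all genes called higher. Of the 44, 33 had a positive and 11 a negative log2 fold change, and the median was 0.13. Without replicate D, 31 were positive and 13 negative, against 8642 positive and 8629 negative of the 17271 genes then tested. With the replicate letter as a block 13 rose and 1 fell, and without replicate D 16 rose and 1 fell, against 5.4% and 5.8% of all genes called higher. Without replicate D, 6.68% of all genes were called lower. Among genes of arrest and feedback, Psrc1, a microtubule-binding protein gene, rose from 41.4 ± 2.88 to 63.6 ± 12.3 CPM (log2 fold change 0.63, adjusted p = 0.0179, edgeR's quasi-likelihood test). Sesn2, which encodes an inhibitor of mTORC1 signalling, rose as well (0.44, adjusted p = 0.0331). Btg2 and Plk2 had log2 fold changes of 0.51 and 0.68 and did not pass (adjusted p = 0.162 and 0.255).

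Among the 8 targets of metabolism, Ak1, an adenylate kinase gene, rose from 156 ± 7.35 to 198 ± 13.5 CPM (log2 fold change 0.35, adjusted p = 0.00824, edgeR's quasi-likelihood test). Cpt1c, of the carnitine palmitoyltransferase family, rose by 0.82 (adjusted p = 0.0268). Outside the metabolism genes, Tap1, a peptide transporter gene of antigen presentation, rose by 0.46 (adjusted p = 0.0450). Of 12 targets of apoptosis and autophagy none passed over the 13 libraries, with 2 higher at an unadjusted p under 0.05. Fas, a death receptor gene, was nearest (0.42, adjusted p = 0.0597), and Fas, Ei24 and Pmaip1 passed with the letter as a block (adjusted p = 0.0155, 0.0166 and 0.0248). Of 6 genes of DNA repair and nucleotide supply none passed over 13 libraries (2 higher and 1 lower at an unadjusted p under 0.05). With the block, which called 5.4% of all genes higher, Polk and Ercc5 were called higher (adjusted p = 0.0168 and 0.0389, edgeR's quasi-likelihood test). Rrm2b, a p53-responsive ribonucleotide reductase subunit gene, was called lower by that fit (log2 fold change -0.15, adjusted p = 0.0490). The shares of all genes lower with the block or at an unadjusted p under 0.05 are not given. Neither lower result is thus read as a trait of the list.

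**Figure D4:**
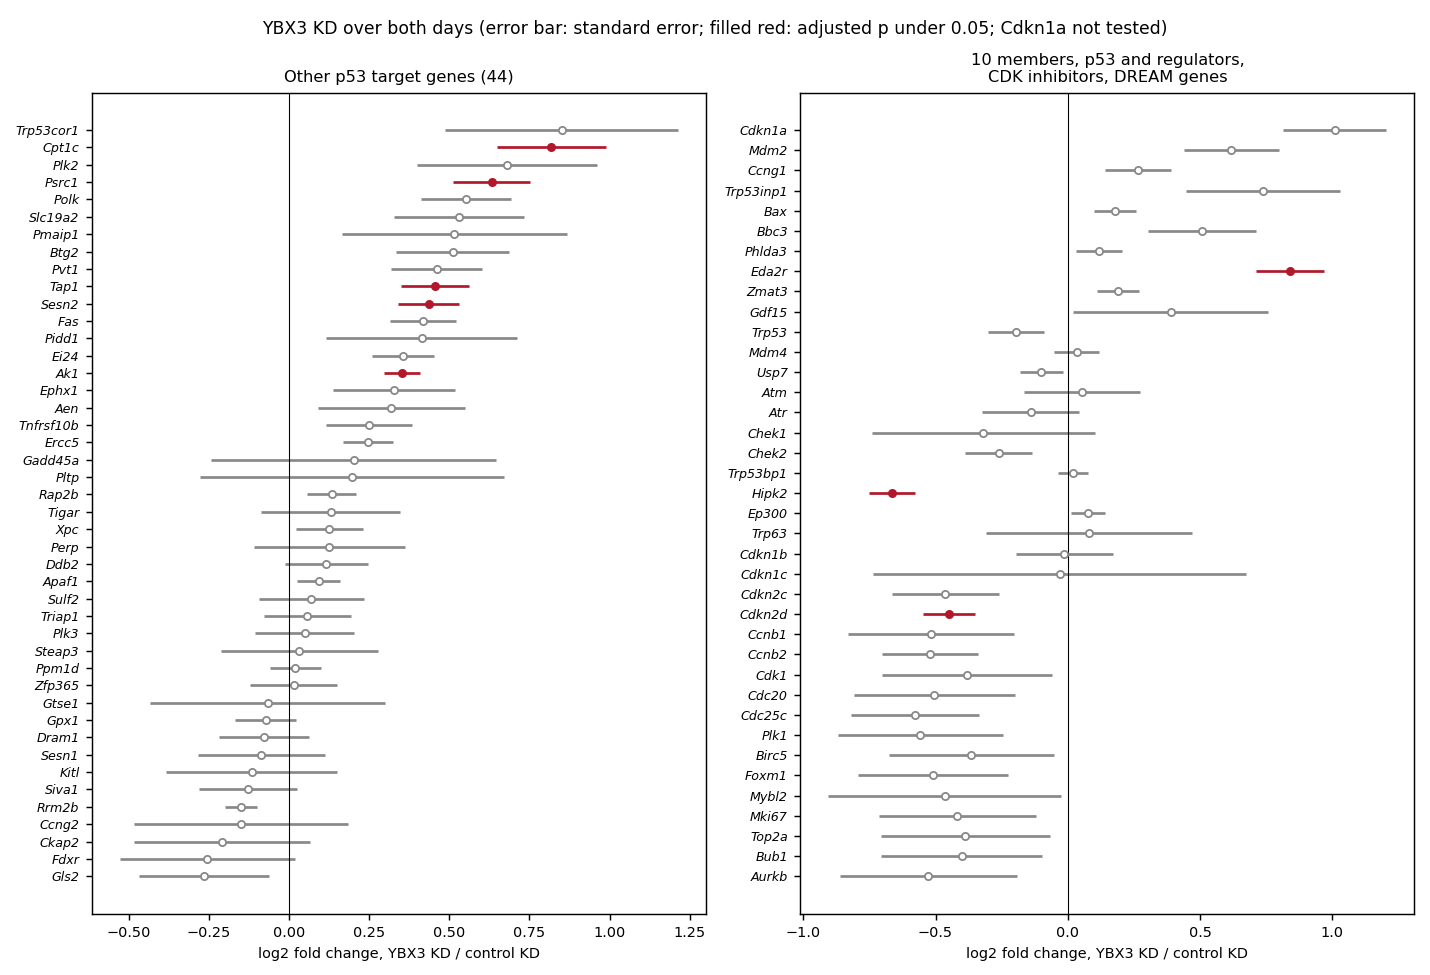
Log2 fold change of YBX3 KD over control KD across both days, with bars of 1 standard error, for 44 other p53 target genes (left, sorted) and for the 10 members, p53 and its regulators, CDK inhibitors and DREAM genes (right). Filled red circles passed an adjusted p of 0.05: Cpt1c, Psrc1, Tap1, Sesn2 and Ak1 on the left, and Eda2r, Hipk2 and Cdkn2d on the right.

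Trp53, the gene of p53 itself, stood at 169.6 ± 19.8 CPM in the controls and at 148 ± 20.1 CPM after YBX3 KD (log2 fold change -0.19, adjusted p = 0.413, edgeR's quasi-likelihood test). RNA levels do not show the amount or activity of the protein. Of 13 genes for p53 and its regulators 11 were tested, and 1 passed. Hipk2, a kinase that phosphorylates p53, fell from 55.2 ± 6.51 to 34.9 ± 3.199 CPM (log2 fold change -0.66, adjusted p = 0.00258), and 1.04% of all genes were called lower. Mdm4, Atm, Atr, Chek1 and Chek2 did not pass. Cdkn2a, whose ARF product inhibits MDM2, had 0 counts in all 13 libraries, as had Cdkn2b. A count of 0 allows a level of up to 0.0417 to 0.0926 CPM per library (3 counts, counting error only).

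None of the 4 other CDK inhibitor genes tested was called higher, and Cdkn2d, the gene of p19INK4d, fell from 22.7 ± 2.10 to 16.6 ± 2.19 CPM (log2 fold change -0.45, adjusted p = 0.0334, edgeR's quasi-likelihood test). Cdkn1b, the gene of p27, was at 74.3 CPM in both groups. Among 10 genes of the cyclins and kinases that p21 acts on, none passed over the 13 libraries (1 higher and 1 lower at an unadjusted p under 0.05). Cdk4 (log2 fold change -0.18, adjusted p = 0.0824) passed once blocked by letter (adjusted p = 0.0242, edgeR's quasi-likelihood test). The shares of all genes lower with the block or at an unadjusted p under 0.05 are not given. Neither lower result is thus read as a trait of the list.

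As background, p21 also leads to repression of late cell cycle genes through the DREAM complex. All 13 DREAM genes listed had a negative log2 fold change, with a median of -0.50, yet none passed over the 13 libraries. Ccnb2 (-0.52, adjusted p = 0.165, edgeR's quasi-likelihood test) and Cdc25c (-0.58, adjusted p = 0.260) had the smallest p-values, and 2 of the 13 were under an unadjusted p of 0.05. With the letter as a block 1 of the 13 fell (Ccnb2, adjusted p = 0.0349). The shares of all genes lower by these 2 rules are not given, so neither count is read as a trait of the list. Without replicate D all 13 fell, with a median of -0.47, where 6.68% of all genes were called lower.

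Their summed level moved with replicate D. At 0 day it was 2637, 2439, 2564 and 1168 CPM in replicates A to D of control KD, and 1904, 1935, 2073 and 1259 CPM in those of YBX3 KD. At 1 day it was 2675 and 2085 CPM in control KD (C and D) and 1991, 2006 and 464 CPM in YBX3 KD (B to D). In replicates A to C the sums of control KD and YBX3 KD did not overlap. In replicate D of control KD at 0 day, the Cdkn1a level was as in YBX3 KD and the sum was below that of every library of replicates A to C. Within the pairs of replicates A to C, Cdkn1a was higher and the sum of the DREAM genes lower in YBX3 KD. The part of the DREAM gene level in the Cdkn1a difference was not tested.

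**Figure D5:**
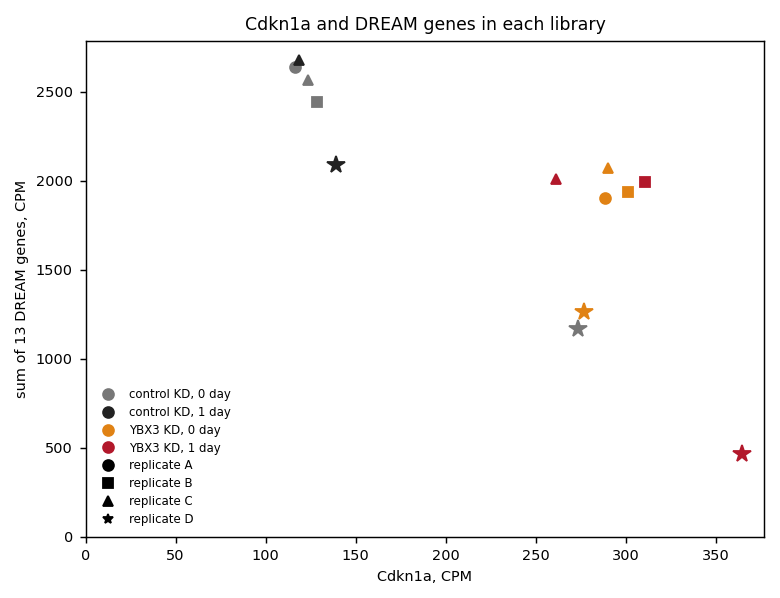
Cdkn1a level (x axis, CPM) and summed level of 13 DREAM genes (y axis, CPM) in each of the 13 libraries, with colour for the group and symbol for the replicate letter. Control KD libraries other than replicate D at 0 day lay at 116 to 139 CPM of Cdkn1a and 2085 to 2675 CPM of DREAM genes, and replicate D of YBX3 KD at 1 day was at the other end (364 and 464 CPM).

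In 2 further lists no gene passed over the 13 libraries. The shares of all genes lower at an unadjusted p under 0.05, or lower with the letter as a block, are not given. Counts and calls by these 2 rules are thus not read as traits of the lists. Of 8 genes of the BCL2 family beside Bax and Bbc3, 3 were positive and 5 negative, and 1 was lower at an unadjusted p under 0.05. Bad, a BH3-only gene, was called lower with the block by letter (log2 fold change -0.15, adjusted p = 0.0453). Of 8 genes of the integrated stress response, which is known to raise Gdf15 and Sesn2 without p53, 4 were positive and 4 negative, and 2 were lower at an unadjusted p under 0.05. Psat1, a serine synthesis gene of that list, was at -0.43 on the log2 scale (adjusted p = 0.0510, edgeR's quasi-likelihood test) and was called lower with the letter as a block (adjusted p = 0.0122).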

How the data were processed

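RNA from 13 C2C12 libraries was sequenced by the authors from stranded mRNA libraries. Per the labels and the study's methods, reads were quantified with Salmon against GRCm39, and the deposited table holds estimated counts per Ensembl gene, given as whole numbers. The Salmon version is not given in the sources used here. Symbols and coordinates came from the Gencode vM39 annotation of GRCm39 (54969 of 55642 IDs matched). Salmon's assignment of reads shared by similar transcripts can shift counts between related genes.

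Groups came from the sample labels. Genes were filtered with filterByExpr on the 4 groups and scaled by trimmed mean of M-values (TMM), and CPM use those factors. The main test was edgeR's quasi-likelihood test (edgeR 4.0.16, R 4.3.3) over all 13 libraries, with day as a covariate for both days and 1 coefficient per group otherwise, Benjamini-Hochberg adjusted over 16848 genes at 0.05. Replicate letters paired the libraries: residuals of libraries sharing a letter correlated above 0.1 in 16 of 16 pairs (median 0.34, others -0.15). No 2 libraries agreed within sampling noise. Alternatives were DESeq2 1.42.0, limma-voom 3.58.1 with quality weights, other scaling and filters, the replicate block, a block by title number, each library left out and, added later, no replicate D and DESeq2 with the block. r used log2 CPM with a prior count of 2. Scripts were tested on simulated data. Members, lists and named genes (the 10 members, Ybx3, the 5 genes most like Cdkn1a, and up to 4 of each list by smallest p; other names were added after values were seen) were chosen with earlier results of these data known. Depth sets counting error only.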

Additional observations from a re-analysis of the deposited data

Results flagged for a closer look

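In groups of 4 libraries, 5 values of the 10 genes lay far from the others of their group. Chance marks about 1 in 20 groups, and 20 groups of 4 (10 genes, 2 groups) were looked at. Replicate D of control KD at 0 day had 273.5 CPM of Cdkn1a, against 116 to 129 CPM in replicates A to C, and 69.85 CPM of Trp53inp1, against 22.4 to 27.3 CPM. Replicate D of YBX3 KD at 0 day had 69.55 CPM of Trp53inp1, against 49.2 to 50.7 CPM, and 11.7 CPM of Bbc3, against 7.37 to 8.08 CPM. The fifth value was Phlda3 in replicate B of YBX3 KD at 0 day, at 189.6 CPM against 162 to 163 CPM in the others. Of the 5, 4 were replicate D, in which the DREAM genes were also lowest at 0 day (summing to 1168 CPM in control KD, and to 1259 CPM after YBX3 KD).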

How the results depend on the processing

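Of the 9 genes tested, 1 passed over both days with 13 libraries. The number was 2 with DESeq2 (which called 3.5% of all genes higher), 6 with limma-voom and quality weights (9.76%), 4 with the replicate block by letter (5.4%), 4 with DESeq2 and that replicate block (8.48%), 6 without replicate D (5.8%), and between 1 and 2 when single libraries were left out (2 without replicate D of control KD at 0 day, where Trp53inp1 passed at an adjusted p of 0.0139). At 0 day the number was 0, and it was 1 with DESeq2 (1.47% of all genes), 3 with limma-voom (5.97%), 1 with the replicate block (1.37%), 4 with DESeq2 and the block (3.68%), 4 without replicate D (2.67%), and 0 to 1 with single libraries left out (1 without replicate D of YBX3 KD). At 1 day it was 0, and it was 1 with DESeq2 (0.398%) and 3 with DESeq2 and the replicate block (5.09%). Without replicate D, 1 day keeps only 1 control library, so no calls are counted there. Beyond the calls given with their results, the replicate block changed none of the 9. Eda2r passed over both days in every setting run (adjusted p from 1.15e-09 to 0.0227). The Phlda3 value at 1 day (0.07) turned to -0.034 with the replicate block and -0.038 with DESeq2 and the block, and ran from -0.075 to 0.18 with single libraries left out. Gdf15 ran from -0.052 to 0.38 at 0 day and from -0.079 to 1.67 at 1 day in the same way. None of the highest 5 genes most like Cdkn1a, 0 of 5, stayed there without replicate D or after group means were subtracted (0 of 5). In the 3 day comparisons 27 of 30 member values changed sign under some alternative and none passed. The cause of these shifts was not tested. Gdf15 and Bbc3 had the lowest CPM of the members and so the largest relative counting error, and 1 day has 2 control libraries.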
